A study of Drosophila melanogaster with 8 samples.

Results

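Dense clusters of KDM5 binding were examined in the larval prothoracic gland of Drosophila melanogaster. They comprise 1113 of the 4931 KDM5 peaks in the deposited list. A peak was chosen by 4 measured values: it lay on arm 2L, 3L or 3R, had at least 8 other peaks of the same arm with centres within 50 kb of its own centre, was under 3000 bp wide and had a binding score under 7.5. The 3 arms held 3120 peaks, of which 229 met the density requirement but were 3000 bp or wider (113), scored 7.5 or more (117), with 1 peak counted in both numbers. A further 747 dense peaks, of any width or score, lay outside these 3 arms and were not selected. All peaks that passed the selection are described below as dense-cluster peaks, and their density, width and score are given as descriptions only.

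KDM5 is a histone demethylase that acts on methylated lysine 4 of histone H3, a mark of active promoters, and it also regulates transcription without this activity. In Targeted DamID, a fusion of the protein to the bacterial methylase Dam marks nearby GATC sites, and the marked fragments are recovered and compared with those from Dam alone, which marks accessible DNA. The 8 samples formed 2 groups of 4: Dam alone (UAS-LT3-dam) and Dam:KDM5 (UAS-LT3-damkdm5). Both groups carried spok-Gal4, a driver active in the prothoracic gland, and tub-Gal80[ts], a temperature-sensitive repressor of that driver, and each sample was made from 100 whole wandering larvae of the last instar. Eggs were collected for 24 h, and animals spent 5 days at 18°C followed by 2 days at 29°C, the temperature at which Gal80 no longer represses the driver. DNA came from whole larvae, so tissue identity rests on the driver, and binding data hold no expression markers with which to check it.

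The fly genome is compact, with housekeeping genes packed closely and often arranged head to head, whereas genes of developmental regulators often lie in wider stretches. A high density of peaks can therefore hold many neighbouring genes or a few long ones, and the clusters were read with that question in mind. The binding score is the deposited value of each peak for Dam:KDM5 relative to Dam alone. Neither its log base nor the way values were combined over a peak (mean or maximum) is stated, and it comes from 1 profile averaged over the 4 replicates. No spread between replicates and no depth per sample could be given, so no difference below was tested. Shares carry exact (Clopper-Pearson) 95% intervals, which cover counting error only and treat peaks as independent.

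The sequences of the highest-scoring dense-cluster peak in each of 4 of the largest clusters are shown first, since every peak boundary in the list (4931 of 4931 starts and 4931 of 4931 ends) fell on a GATC site and these sites set the grain of the data. Each is a stretch of 200 bases within the peak, outside annotated UTRs, read 5′ to 3′ from the plus strand of the dm6 genome, with GATC sites in capitals. The stretches lie at chr3R:24230986-24231185 under mask, chr2L:10427312-10427511 under KdelR, chr3L:3043148-3043347 under Prx4 and chr3R:5569324-5569523 under Rheb.
mask: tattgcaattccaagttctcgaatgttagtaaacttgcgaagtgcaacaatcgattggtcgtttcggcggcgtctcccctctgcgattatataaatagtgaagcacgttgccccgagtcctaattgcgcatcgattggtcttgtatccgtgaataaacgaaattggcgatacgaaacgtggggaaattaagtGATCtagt
KdelR: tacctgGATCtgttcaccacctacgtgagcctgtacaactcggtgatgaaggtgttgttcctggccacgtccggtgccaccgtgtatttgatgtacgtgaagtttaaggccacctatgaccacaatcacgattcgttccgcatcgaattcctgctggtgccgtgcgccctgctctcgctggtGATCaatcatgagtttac
Prx4: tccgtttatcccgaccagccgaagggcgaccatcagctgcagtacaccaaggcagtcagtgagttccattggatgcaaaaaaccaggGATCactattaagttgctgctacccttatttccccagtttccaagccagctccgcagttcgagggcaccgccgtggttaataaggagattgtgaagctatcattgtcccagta
Rheb: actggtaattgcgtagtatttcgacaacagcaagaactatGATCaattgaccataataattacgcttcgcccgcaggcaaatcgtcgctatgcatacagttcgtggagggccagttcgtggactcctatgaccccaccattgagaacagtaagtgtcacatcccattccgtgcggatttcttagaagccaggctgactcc
The KdelR stretch held 2 GATC sites and the other stretches held 1 each. Dense-cluster peaks as a whole spanned a median of 5 GATC sites (3 to 14).

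A second set of stretches, 101 bases long, shows 1 dense-cluster peak for each of 6 core promoter or regulatory motifs, with 1 match of the motif in capitals. Further matches, such as those of GAGA in the vri stretch, are left in lower case. They come from the plus strand of dm6 at chr3L:20524216-20524316 (DRE, the letters TATCGATA, in Pss), chr3R:8653508-8653608 (E-box, CACGTG, in the peak over CG42489 and Sys1), chr2L:5306506-5306606 (GAGA, GAGAG, in vri), chr2L:8158843-8158943 (TATA box, TATAAA, in the peak over CG43394 and PAPLA1), chr3L:15968099-15968199 (Ohler motif 1, in the peak over Brr2 and CG10516) and chr3R:11244156-11244256 (Ohler motif 6, in the peak over CG17734, CG5214 and scpr-A). Motifs were searched on both strands, and no motif searched holds another, although matches can overlap in part.
Pss: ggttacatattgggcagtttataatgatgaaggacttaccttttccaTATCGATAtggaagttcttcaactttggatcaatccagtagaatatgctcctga
CG42489: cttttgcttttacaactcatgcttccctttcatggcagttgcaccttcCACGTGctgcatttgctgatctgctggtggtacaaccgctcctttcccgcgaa
vri: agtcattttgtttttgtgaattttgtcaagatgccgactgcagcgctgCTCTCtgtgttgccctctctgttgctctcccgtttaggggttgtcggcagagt
CG43394: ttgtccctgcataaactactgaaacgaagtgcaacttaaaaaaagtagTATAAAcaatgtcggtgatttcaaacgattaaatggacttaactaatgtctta
Brr2: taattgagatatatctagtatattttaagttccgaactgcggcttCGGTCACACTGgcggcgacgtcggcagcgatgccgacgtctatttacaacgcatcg
CG17734: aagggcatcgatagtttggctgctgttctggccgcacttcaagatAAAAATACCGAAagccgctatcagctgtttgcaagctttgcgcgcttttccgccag
The peaks that hold these stretches scored 7.34 (Pss), 7.41 (CG42489), 7.48 (vri), 7.40 (CG43394), 5.65 (Brr2) and 7.40 (CG17734). The centre of the Pss peak lay in an intron, 1384 bp from the nearest protein-coding start. That of the CG43394 peak lay in a coding exon, 1569 bp away, and the other centres lay within 1 kb of a transcription start. A match of letters is a description of the sequence and not of a bound factor or a working promoter element.

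Dense-cluster peaks made up 349 of 895 peaks on 2L (39.0%), 309 of 983 on 3L (31.4%) and 455 of 1242 on 3R (36.6%), or 14.8, 10.99 and 14.2 per Mb of arm. They had a median of 10 other peaks within 50 kb (8 to 19). For comparison, the 1449 peaks of the same arms that met the same width and score limits but had fewer than 8 neighbours, called sparser peaks here, had a median of 5. The neighbour limit fell in a range with many peaks: 290 dense-cluster peaks had exactly 8 neighbours and a median score of 4.71, and 225 peaks that met the other limits had 7 neighbours and a median score of 4.63. At the score limit, the peaks just inside were those over CG9536 and Sec61alpha (7.49), vri (7.48) and Coq4 and frc (7.47), and those just outside lay over pst (7.5), CG10365 (7.53) and CG11980 and Prosbeta3 (7.54). At the width limit, peaks over CG13676 (2996 bp), CG7044 and RhoGAP93B (2970 bp) and CG17328 and heix (2960 bp) were inside, and peaks over ps (3000 bp), Acox3 and retm (3025 bp) and Hrb27C (3039 bp) were outside.

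**Figure D1:**
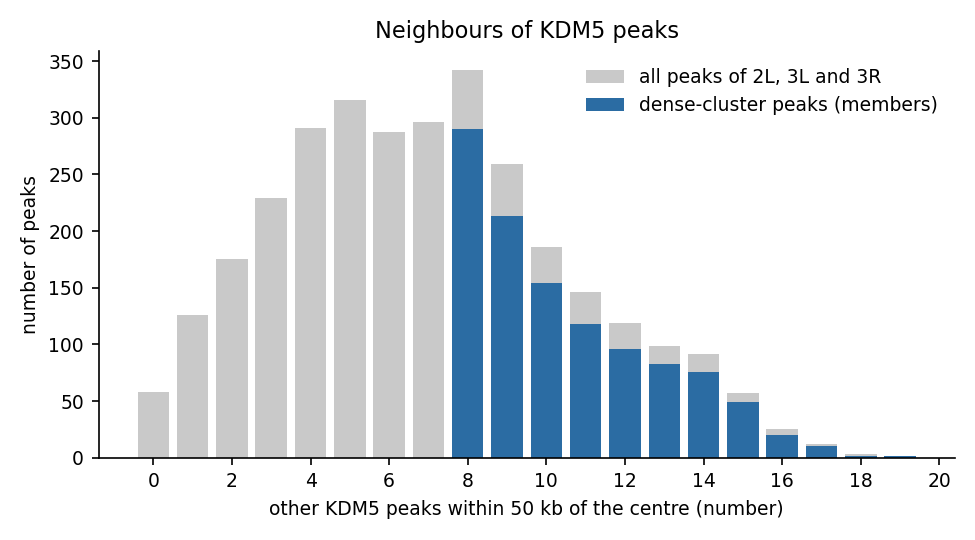
Number of KDM5 peaks (y axis) by the number of other peaks with centres within 50 kb (x axis), for all 3120 peaks of 2L, 3L and 3R (grey) and the 1113 dense-cluster peaks (blue). Blue bars start at the limit of 8 neighbours, where 290 dense-cluster peaks stood, and reach 19.

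The peak with the most neighbours lay over da, which encodes the bHLH factor Daughterless, with 19 other peaks and 39 protein-coding gene starts within 50 kb and a score of 6.41. A peak over SelT and the 3′ end of the collagen IV gene vkg also had 19, with 32 gene starts and a score of 4.85. Peaks over Rga and CG42404 had 18 each, with scores of 4.12 and 2.05, and the peak over CG4022 and Cpsf5 had 17, with a score of 6.81. A crowded position therefore occurred with scores from 2.05 to 6.81 among these 5 peaks.

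The 5 highest scores lay close below the limit. They were 7.49 over CG9536 and Sec61alpha, the channel of the endoplasmic reticulum translocon, 7.48 over vri, a bZIP repressor of the circadian clock, 7.47 over Coq4 and frc, 7.47 over Prx4, a peroxiredoxin, and 7.47 over Pgk, phosphoglycerate kinase. The lowest-scoring peaks lay over Prp4k (1.55), Men and PolQ (1.57), CG4896 (1.66), CG5087 (1.67) and PolA2 (1.67), a subunit of DNA polymerase alpha. The centres of the Prp4k, CG4896 and CG5087 peaks lay in coding exons, 2268, 1310 and 1307 bp from the nearest start of a protein-coding gene. Across all dense-cluster peaks the median score was 4.77 (quartiles 3.58 and 5.90), against 4.43 (3.33 and 5.61) for sparser peaks, with widths of 1350 and 1427 bp.

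Joining dense-cluster peaks whose centres were at most 50 kb apart gave 123 clusters, with a median of 7 peaks and a highest number of 43. Only 9 clusters held a single dense-cluster peak, whereas 37 clusters of 10 or more held 645 peaks (58.0%) and the 6 largest held 212 (19.0%). The clusters spanned 8.26 Mb, or 9.86% of the 83.7 Mb of the 3 arms. These spans touched 2115 of the 8817 protein-coding genes of the arms (24.0%), of which 1441 overlapped a peak of any kind (68.1%). Over all genes of the 3 arms, 3443 overlapped a peak (39%), and since clusters were chosen for their peaks, nothing is read from the higher share within them. The dense-cluster peaks themselves overlapped 1259 genes, 1255 of which stood on the authors' list of genes with a peak, and for 1163 the listed score was that of a dense-cluster peak to within 0.005. Scores given below for a gene are those of its dense-cluster peaks unless stated, and a gene can have further peaks that did not meet the limits. A peak whose score is given for a gene can also cover other genes that are not named.

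The largest cluster, on 3R (chr3R:23925225-24290420), held 43 dense-cluster peaks, and 53 of its 73 genes overlapped a peak. All 3 peaks over Gdh, the mitochondrial glutamate dehydrogenase, scored high (6.94, 6.96 and 7.14), as did those over CG5854 (7.22), over mask and Spase22-23 (7.26), over eIF4EHP, a translational repressor that binds the mRNA cap (7.09), and over Atg6, the fly Beclin (6.80). Low scores in the same cluster lay at GluProRS, a double tRNA synthetase (2.58, beside a second peak of 5.38), at Mettl3, an mRNA methyltransferase (2.52), and at the second mask peak, shared with beta-PheRS (1.73). Tsc1, which restrains TOR signaling, scored 4.42, SMC1, a cohesin subunit, 3.82, and Miro, a GTPase that moves mitochondria, 3.94 and 6.11. The 2 peaks over the stress kinase p38a scored 4.51 and 3.02. The median score of the cluster was 4.66.

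The cluster of 41 peaks on 2L (chr2L:10200665-10474178) was the richest in genes of the 6, with 92, of which 64 overlapped a peak. Its highest scores lay over KdelR, which returns proteins to the endoplasmic reticulum (7.36 and 7.05), RpS27A, which encodes ubiquitin fused to a ribosomal protein (7.15), Cnot4 and Mdh1, the latter a malate dehydrogenase (6.71), and da (6.41). The peak over bsk, the Jun kinase, and CG31717 scored 5.55, and that over chico, the insulin receptor substrate, 3.40. The peak over Npc1a, which moves cholesterol within cells, and Prosalpha6, a proteasome subunit, scored 5.06. TfIIB, a general transcription factor, had peaks of 5.30 and 3.16. The lowest value of the cluster was 2.06, over Frmd5 and Sps2, and its median was 4.51.

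The 3L cluster of 37 peaks (chr3L:3036571-3373969) had 74 genes, 41 with a peak, and a median score of 5.31. Prx4 (7.47), Ythdc1, a nuclear reader of methylated mRNA (7.46), the peak over CG14966, CG32276 and gry (7.40), and Girdin (7.19) stood highest. The Hsp90 gene Hsp83 scored 5.24. BtbVII had 3 peaks, of 6.35, 3.57 and 5.38, the last shared with ND-30, a subunit of respiratory complex I. Sk2, a sphingosine kinase, scored 5.41 and 4.18, and nSMase, a sphingomyelinase, 6.32 in a peak shared with hob. The peak over Drs, which encodes the antifungal peptide Drosomycin, was shared with Ythdc1 and scored 3.07. The lowest value was 1.89, over CG11537.

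A 3R cluster of 32 peaks (chr3R:5517473-5793560) had 57 genes, 45 with a peak, and a median score of 4.96. Rheb, the GTPase that activates TOR, had peaks of 7.39 and 4.03, the lower one shared with CRMP. Sec8, of the exocyst, scored 6.69 and Rab23 3.59. Sec23, of the COPII coat, had peaks of 2.47 and 3.01, and another, of 8.41, that lay above the score limit and so was not selected. The 8.41 peak also covered MTA1-like. Atg17, of the autophagy initiation complex, scored 6.32, Vha26, of the proton pump V-ATPase, 6.26, and Itpr, the calcium channel of the endoplasmic reticulum, 5.14 in a peak shared with Nmdar1. The peak over Rpn5, a proteasome subunit, was the narrowest dense-cluster peak, at 53 bp, and scored 5.85.

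The 3R cluster of 30 peaks (chr3R:15197677-15372895) was the most compact of the 6, with 57 genes, 40 with a peak, in the shortest span. Caf1-55, a histone chaperone subunit, scored 6.97 and 4.28, Set 6.64, Cp190, an insulator protein, 4.27, MRG15, a chromodomain protein, 4.23, and the peak over eIF2gamma and Su(var)3-9, the latter a histone H3 lysine 9 methyltransferase, 5.60. Atg4b, an autophagy protease, had the highest score of the cluster (7.19), beside a second peak of 6.85 shared with Hibch. Mau2, which loads cohesin, scored 3.09 and 4.06 in peaks shared with neighbours. The lowest value was 2.05, over CG42404, and the median was 4.47.

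The 2L cluster of 29 peaks (chr2L:4846178-5101573) had 60 genes, 40 with a peak, and a median of 5.24. The collagen IV genes vkg and Col4a1 lie next to each other in it, and their 5 peaks ranged from 2.99 to 4.85, all below the cluster's median. Rtnl1, a reticulon of the endoplasmic reticulum, had peaks of 7.28, 5.94 and 3.51. The translation initiation genes eIF3i and eIF3h scored 6.00, and 5.08 and 6.38. The proteasome gene Rpn11 had peaks of 4.80 and 5.45, the peak over Mon1 and the mitochondrial ribosomal gene mRpS2 scored 6.59, and Msp300, a nuclear envelope protein, scored 6.79.

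**Figure D2:**
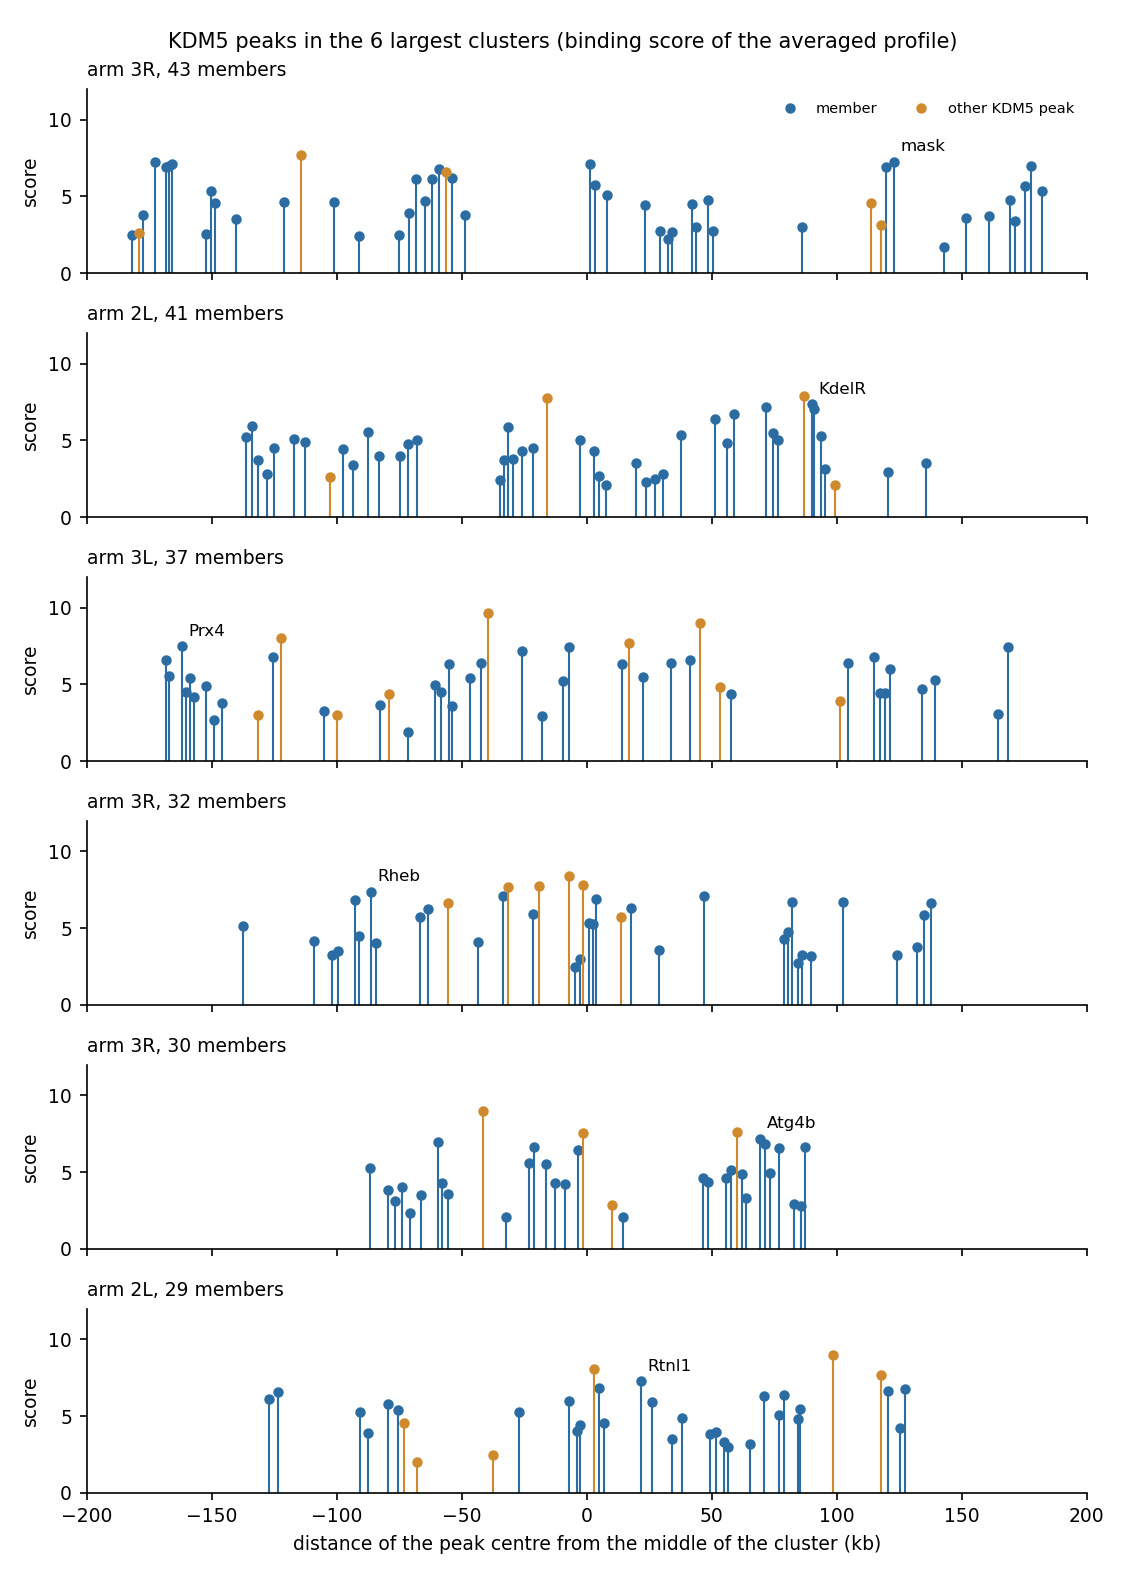
Binding score (y axis) of every KDM5 peak in the 6 largest clusters, against the distance of its centre from the middle of the cluster in kb (x axis). Dense-cluster peaks are blue, other peaks orange, and the gene of the highest dense-cluster peak is named: mask (7.26), KdelR (7.36), Prx4 (7.47), Rheb (7.39), Atg4b (7.19) and Rtnl1 (7.28), each with low peaks close by.

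High and low scores stood side by side within clusters. In the 37 clusters of 10 or more peaks, the SD of scores within a cluster had a median of 1.52 (1.14 to 1.83), and the SD over all dense-cluster peaks, whose scores the selection capped, was 1.497. The lowest median was 3.49 in the cluster of Sirt1, a deacetylase, and the highest was 6.32 in that of CrebA, a bZIP activator of secretory genes, whose 3 dense-cluster peaks scored 7.13, 6.72 and 6.44 and whose other 2 peaks, of 8.57 and 7.68, lay above the score limit. The 13 dense-cluster peaks of the CrebA cluster ran from 1.85 to 7.16. Over 826 pairs of adjacent dense-cluster peaks, the scores of the pair had a Pearson correlation of 0.07 (Spearman 0.07) and a median absolute difference of 1.45, given as a description, since the pairs share peaks and 1 profile. For 1104 pairs of adjacent sparser peaks the correlation was 0.06. In both sets, pairs with a peak outside the score or width limit were left out. This narrows the range of scores, so nothing is read from these correlations.

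**Figure D3:**
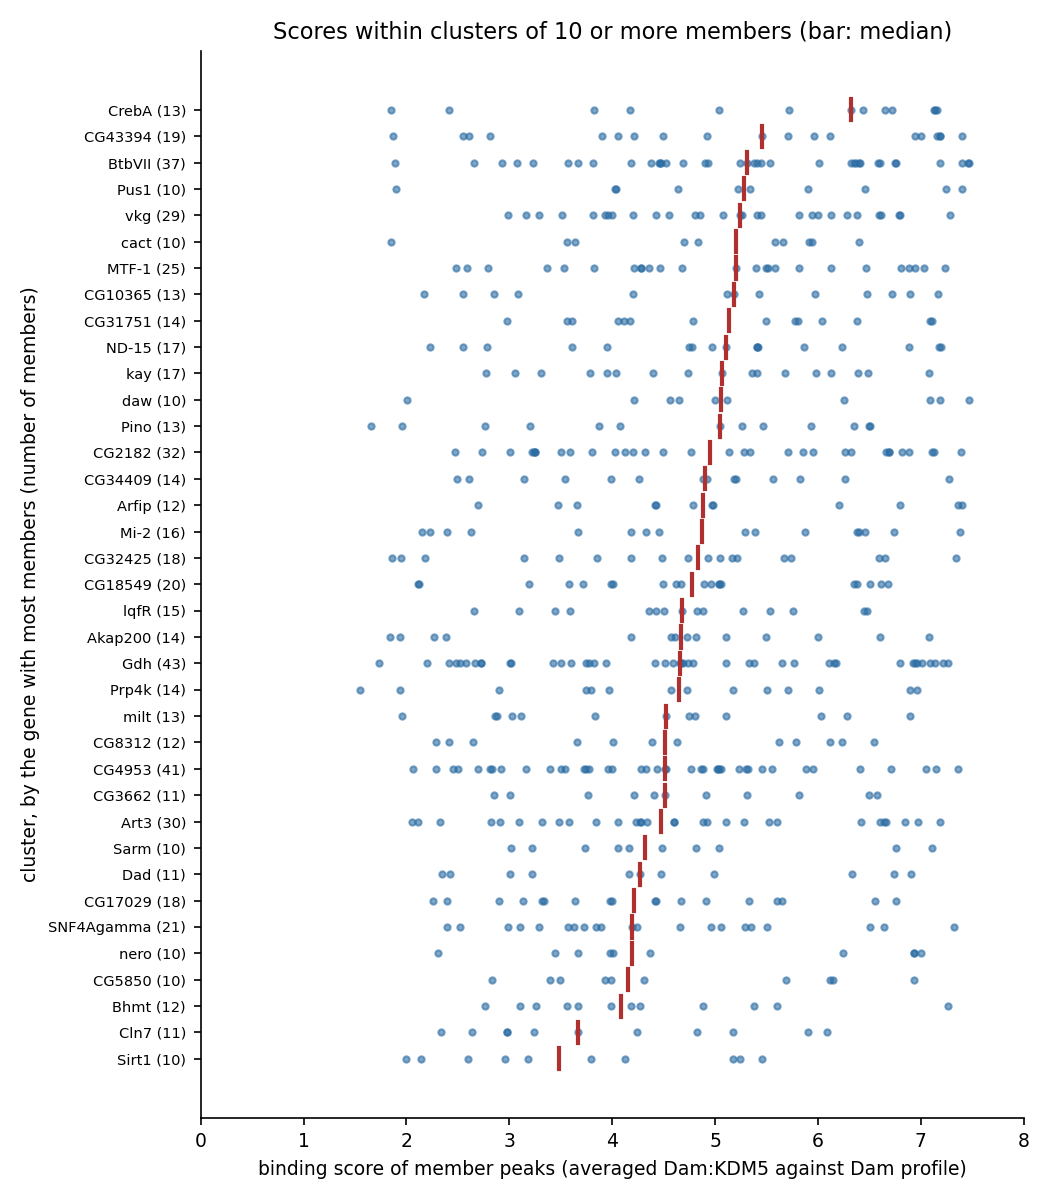
Binding scores of dense-cluster peaks (blue points, x axis) in the 37 clusters of 10 or more, ordered by median (red bar) and named for the gene with most peaks, with the number of peaks in brackets. Medians ran from 3.49 (Sirt1) to 6.32 (CrebA), and most clusters spread over much of the allowed range.

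The spacing of peaks was close to the limit of the method in a small share of cases. Adjacent dense-cluster peaks were a median of 2383 bp apart, with a median of 9 GATC fragments between them, against 7360.5 bp and 27 fragments for sparser peaks. The neighbour limit itself separates these sets by spacing, so nothing is read from this difference. Of the 826 pairs, 40 (4.84%) were separated by a single GATC fragment, 135 by under 500 bp, and the closest by 6 bp. Under the same score and width limits, scores of the 40 pairs were alike (Pearson r = 0.68, median difference 0.62). Those of the 786 pairs further apart were not (r = 0.05, median difference 1.5). When peaks 1 fragment apart were counted as a single peak, an alternative chosen after seeing the data, 1043 of the 1113 (93.7%) still had at least 8 neighbours.

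Many genes lay around these peaks. The median number of protein-coding gene starts within 50 kb was 21 (quartiles 17 and 25, range 0 to 42), against 14 (10 and 18) for sparser peaks. By neighbour number, the median was 11 for peaks with 0 to 3 neighbours (n = 467), 15 with 4 to 7 (n = 982), 19 with 8 to 11 (n = 775), 25 with 12 to 15 (n = 304) and 29.5 with 16 or more (n = 34). The sets and classes were made by counting peaks in the same 50 kb, and most peaks lay near starts. Higher gene counts are therefore in part built into the selection, and nothing is read from them. Median scores over the same classes were 4.44, 4.43, 4.79, 4.65 and 4.92, with broadly overlapping quartiles. A dense-cluster peak and its neighbours overlapped a median of 12 different genes (1 to 27).

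GATC sites, the only places where Dam can mark DNA, were also more numerous around dense-cluster peaks than around sparser ones. Dense-cluster peaks had a median of 339 sites within 50 kb (307 to 370 between quartiles) and sparser peaks 299 (261 to 335), and the medians by neighbour class were 270, 309, 331, 353 and 345.5. When both sets were divided into 3 classes of about equal size by GATC sites, a comparison chosen after seeing the data, gene starts were 14 against 12 in the class with fewest sites (191 dense-cluster and 673 sparser peaks), 20 against 15 in the middle class (384 and 465) and 22 against 17 in the class with most sites (538 and 311). Within these classes the median numbers of sites were 276 against 257, 318 against 314 and 371.5 against 371, so the class with fewest sites was the least evenly matched. The gene starts of these classes are likewise in part set by the selection. The part of GATC density in the number of peaks was not tested.

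Dense-cluster peaks lay near gene starts about as often as sparser ones. A total of 903 of 1113 came within 1 kb of a transcription start site (81.1%, 95% interval 78.7 to 83.4), against 83.2% (81.2 to 85.1) of sparser peaks. Their centres were a median of 722.5 bp from the nearest start, against 719.5 bp, and 76.7% (74.1 to 79.2) lay downstream of the nearest protein-coding start, against 81.6% (79.5 to 83.5). Most peaks (776, 69.7%) held no protein-coding gene start inside, and 132 (11.9%) held starts on both strands, against 11.4% of sparser peaks. The order of these starts was not checked, so they need not be head to head. Centres away from starts lay in introns in 178 cases (15.99% against 19.4%) and in coding exons in 163 (14.6%, 12.6 to 16.9, against 9.87%, 8.38 to 11.5), with 46 in 3′ UTRs and 23 between genes. Coding exon shares by neighbour class were 8.99%, 10.3%, 14.8%, 14.5% and 11.8%.

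In total, 649 dense-cluster peaks overlapped 1 protein-coding gene, 375 overlapped 2, 60 overlapped 3, 5 overlapped 4 and 24 overlapped none. One of those over 4 genes lay on CG31650, CG33995, CG44000 and CG44001 (6.28). Where a peak covers several genes, the profile cannot assign it to any of them. Scores given for 1 gene can come from a peak that also covers genes not named there. Examples are eIF4EHP (7.09, also CG10694 and CG18428), Atg6 (6.80, also CG5986), RpS27A (7.15, also Ip259) and KdelR (7.05, also CG5188). Others are MRG15 (4.23, also CG4338), TfIIB (5.30, also Bug22, and 3.16, also TBC1D16) and Sk2 (5.41, also scramb2).

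A few clusters were built on a single long gene rather than on many short ones. Eip75B, the ecdysone-induced nuclear receptor gene, held all 7 dense-cluster peaks of its cluster, which scored 4.84, 7.27, 5.66, 5.82, 3.64, 7.08 and 3.29 along the chromosome, and 11 peaks of any kind over its 113744 bp. It was the only gene within its cluster's span. The gene for the nuclear receptor Hnf4 held 5 of the 6 peaks of its cluster (5.42, 4.79, 6.00, 5.06 and 4.69), a narrow range beside that of Eip75B. Among other genes with several dense-cluster peaks, SNF4Agamma, a subunit of the energy sensor AMPK, held 5 dense-cluster peaks of 8 in all, bun, a TSC22 family gene, 4 of 8, mtd 4 of 7, and Dad, an inhibitory Smad of the BMP pathway, and CycG, a cyclin, 4 of 5 each. All 4 peaks over cact, the fly inhibitor of NF-kappaB, belonged to a dense cluster and scored 4.70, 5.91, 5.94 and 6.40, and the 3 peaks over ex, a regulator of the Hippo pathway, were lower (3.07, 2.63 and 2.23).

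ND-15, a subunit of respiratory complex I, carried most dense-cluster peaks of any gene, with 8, but its annotated 41305 bp enclose other genes, and each of the 8 peaks also overlapped another gene, such as Gs1, a glutamine synthetase (4.97), CG3164 (5.86) or Pus10 (3.95). Over all genes, 981 had 1 dense-cluster peak, 236 had 2, 31 had 3, 7 had 4, and Hnf4, SNF4Agamma, Eip75B and ND-15 had 5 or more. In 29 of the 123 clusters 1 gene lay under at least 50% of the peaks, but only 8 of these had 5 or more peaks (ex, Hnf4, Nup107, bun, Eip75B, mtd, tara and CycG). For single peaks, 473 (42.5%) had no neighbour on a gene of their own, 385 (34.6%) had 1 and 255 (22.9%) had 2 or more, and in 32 (2.88%) at least 50% of the neighbours lay on the same gene.

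Gene groups differed widely in how many members lay under dense-cluster peaks. Over all 8817 protein-coding genes of the 3 arms the share was 14.3%, beside 39.0% under any peak. Among protein synthesis genes, 11 of 53 cytoplasmic ribosomal protein genes lay under a dense-cluster peak (20.8%), including RpL3 (7.36), RpL36A (7.19) and RpS27A (7.15), whereas 42 of 53 lay under any peak. Mitochondrial ribosomal proteins gave 10 of 50 (mRpS2, 6.59, and mRpL48, 6.36), translation factors 10 of 33 (eIF4EHP, 7.09, and eIF3l, 6.74) and aminoacyl-tRNA synthetases 4 of 22 (GluProRS, 5.38, and SerRS-m, 5.11). For protein turnover the numbers were 11 of 29 proteasome subunits (37.9%), including Rpt5 (6.89), Prosalpha2 (6.38) and Rpn9 (5.97), and 6 of 14 autophagy genes (42.9%), including Atg4b (7.19), Atg6 (6.80), Atg17 (6.32) and Atg4a (5.05). Under any peak the shares were 51.7% for proteasome and 85.7% for autophagy genes. Mitochondrial ribosomal proteins gave 60%, translation factors 60.6% and aminoacyl-tRNA synthetases 77.3%. Dense-cluster shares were not adjusted for these, so no preference for dense clusters is read from them.

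Organelle and transport groups followed. Respiratory complex I had 8 of 22 genes under dense-cluster peaks (36.4%), with ND-15 at 6.88 in a peak shared with CG31974, ND-ACP at 6.66, ND-30 at 5.38 and ND-51 at 5.04. That ND-15 peak was centred 666 bp from the start of CG31974, far from the start of ND-15. The dense-cluster peak closest to the ND-15 start, shared with CG13694, scored 4.75. The vesicle transport list, matched by gene symbol, had 15 of 56, with Sec61alpha (7.49), Sec8 (6.69), Cog3 (6.37) and Sec5 (6.37) highest. Sec61alpha, the translocon channel, stood on this list by its symbol only. Rab GTPases had 3 of 17 (Rab8, 6.74) and V-ATPase subunits 2 of 23 (Vha26, 6.26, and VhaSFD, 6.19), a share of 8.70%, below that of all genes. In the nucleus, 6 of 22 RNA polymerase subunits (Polr3G, 6.53), 2 of 11 TFIID subunits (Taf4, 5.60), 4 of 22 Mediator subunits (MED6, 6.26), 4 of 21 splicing factors (Sf3a2, 6.55), 2 of 10 nucleoporins (Nup107, 5.09) and 3 of 22 DNA replication proteins (Mcm10, 5.72) lay under a dense-cluster peak. Under any peak, shares were 54.5% for complex I, 71.4% for vesicle transport, 70.6% for Rab GTPases and 39.1% for V-ATPase. They were 68.2% for RNA polymerase, 63.6% for TFIID, 72.7% for Mediator, 61.9% for splicing, 80% for nucleoporins and 54.5% for replication.

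Lists of genes that lie in arrays of close paralogs or serve special tissues ranged from no gene under a dense-cluster peak to 31.3%. None of 25 Osiris genes, 11 E(spl) complex genes, 16 odorant-binding protein genes, 30 UDP-glycosyltransferases, 16 digestive serine proteases or 114 histone genes lay under one. Under any peak the numbers were 0, 0, 2, 2, 1 and 2 in the same order. Among 85 cuticle protein genes only Cpr67B (5.49) lay under a dense-cluster peak, and among 108 chemoreceptors only Or85f (3.36). Few genes of these lists lay under any peak either, 2 cuticle protein genes (2.35%) and 4 chemoreceptors (3.70%). In the GstD array, of detoxifying glutathione S-transferases, GstD1 had peaks of 4.67 and 6.51, the former shared with GstD9, the peak over GstD10 and GstD9 scored 5.06, and that over GstD3 and GstD4 3.19. The list of glutathione S-transferases thus had 5 of 16 genes under dense-cluster peaks (31.3%), and cytochrome P450 genes had 4 of 35 (11.4%), led by Cyp6d5 (5.93). Under any peak these lists had 7 and 13 genes. How reads from near-identical copies were placed is not given in the sources used here, so values over arrays are uncertain.

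Of 13 ecdysone response regulators, Eip75B alone lay under dense-cluster peaks, and 6 lay under any peak. None of 8 Hox genes did, against 3 under any peak.

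**Figure D4:**
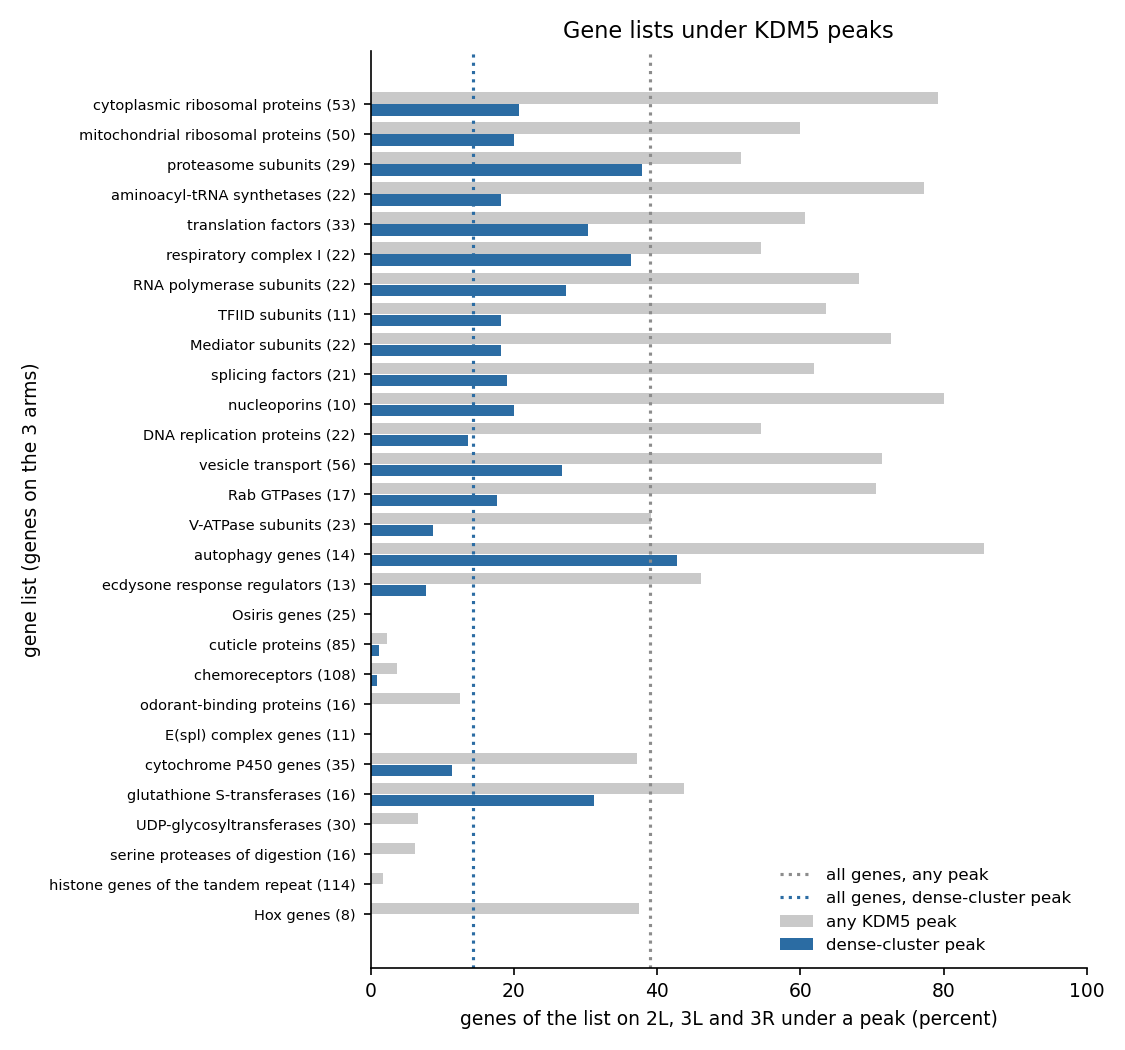
Percent of the genes of each list on 2L, 3L and 3R (x axis) under any KDM5 peak (grey bars) and under a dense-cluster peak (blue bars), with the number of genes in brackets. Dotted lines mark all protein-coding genes, 39.0% and 14.3%. Autophagy (42.9%) and proteasome genes (37.9%) had the longest blue bars, and the Osiris and E(spl) genes had none of either colour.

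Motifs were present in similar shares of dense-cluster and sparser peaks. Short strings such as GAGAG and TATAAA recur by letters alone in peaks this wide, and the share expected from this was not computed. Sparser peaks were also slightly wider (median 1427 against 1350 bp). The DRE was present in 64 peaks (5.75%, against 5.25% of sparser peaks), the E-box in 206 (18.5% against 17.8%), GAGA in 75.7% (against 78.5%), the TATA box in 69.0% (against 72.9%), Ohler motif 1 in 45 (4.04%, 2.96 to 5.37, against 2.55%, 1.80 to 3.50) and Ohler motif 6 in 20 (1.80% against 1.93%). In the 300 bases about the peak centre the DRE was present in 0.72% of dense-cluster and 1.24% of sparser peaks, the reverse order, and Ohler motif 1 in 0.90% and 0.41%. In promoters, taken from 250 bases before to 50 after each annotated start, the DRE occurred in 14.1% of the 1259 genes under dense-cluster peaks, 14.2% of the 2184 other genes with a peak, 4.78% of the 5374 genes without one and 8.46% of all 8817. Ohler motif 1 occurred in 9.05%, 6.73%, 2.23% and 4.32% in the same order, Ohler motif 6 in 3.57%, 3.02%, 1.38% and 2.10%, and the E-box in 5.00%, 4.35%, 3.498% and 3.92%. GAGA was less common under dense-cluster peaks (25.9%) than in other genes with a peak (32.3%), genes without one (29.8%) and all genes (29.9%), and the TATA box gave 48.5%, 43.7%, 48.8% and 47.5%. Adjacent genes that face away from each other can share promoter sequence, so these counts are not independent.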

How the data were processed

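Peaks came from Targeted DamID of Dam:KDM5 and Dam alone, 4 samples each. The authors aligned reads to dm6, made profiles with damidseq_pipeline, averaged the replicates and called peaks with find_peaks at an FDR of 0.01 (tool versions not given in the sources used here). Their deposited peak list gives each peak a score and an FDR, and the deposited gene table, made by the authors with peaks2genes, gives a score per gene. Another deposited sheet, with repeated gene names, was not used.

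Members, clusters, 28 gene lists and 6 motifs were chosen with earlier results of these data known. Gene, TSS and exon positions came from Ensembl release 115, and sequences from the RefSeq dm6 genome. A gene counted as under a peak at an overlap of 1 bp. Only protein-coding genes were counted unless stated, and a gene start is the outermost annotated start, whereas transcription start sites include those of all transcripts. Depth per sample is unknown, and no test was run. Named peaks were those of the 6 largest clusters, the 5 with most neighbours, the 5 highest and lowest, the 3 nearest each limit, up to 4 genes per list, the genes with most peaks and the clusters mostly on 1 gene. A gene that this rule selects is not reported here. Within the 6 largest clusters, the genes named were picked for their known roles or extreme values after these were seen, as were CrebA, cact, ex, Gs1, CG3164, Pus10 and the peak over 4 genes. Alternatives covered the window, the number of neighbours, the width, score and FDR limits, joining, TSS distance, overlap and motif window. Clustering and counting steps were tested on simulated data. Tools were numpy 2.4.6, pandas 2.3.3, scipy 1.17.1 and matplotlib 3.10.9.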

Additional observations from a re-analysis of the deposited data

How the results depend on the processing

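The number of dense-cluster peaks depended on its limits. From 1113, it became 275 with a window of 25 kb and 1989 with 100 kb, 610 with at least 10 neighbours, 152 when only peaks at or above the median score were kept, and 687 at an FDR under 0.001. It stayed within 1.5 times (1043 to 1338) with at least 7 neighbours, with no width limit, with no score limit, and with peaks 1 GATC fragment apart merged. Joining at 25 kb gave 188 clusters in place of 123, and joining at 100 kb gave 117.

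The share near a TSS was 68.6% at 500 bp, 91.5% at 2 kb, 69.9% for outermost protein-coding starts and 62.6% for peak centres. The median number of genes within 50 kb, 21 as overlapping protein-coding genes, was 25 for all gene types and 23 with at least 10 neighbours. Median scores and arm shares moved less than their 95% intervals under each alternative run. In 300 bases about the peak centre, all 6 motifs were less frequent than in whole peaks, which are longer. The DRE, at 5.75% against 5.25% of sparser peaks over whole peaks, stood at 0.72% against 1.24%, and Ohler motif 1, at 4.04% against 2.55%, stood at 0.90% against 0.41%.

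No paired analysis was possible because the files hold only the average of the replicates. No replicate was left out for the same reason.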

Other observations

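Dense-cluster peaks over some regulators of growth, stress and immunity are given as values, for genes chosen after these were seen. The 3 dense-cluster peaks over foxo, the transcription factor restrained by insulin signaling, scored 6.51, 5.14 and 4.62, with centres in introns, and 2 further foxo peaks did not meet the limits, at a score of 8.48 and, over 3539 bp, of 5.68. The peaks over kay, the fly Fos, scored 7.08, 5.98 and 4.40, each within 1 kb of a transcription start. The 2 dense-cluster peaks over cnc, the fly counterpart of the oxidative stress factor Nrf2, scored 6.05 and 6.44, and another cnc peak, of 5.69, had 6 neighbours. The peaks over aop, an ETS repressor that acts downstream of Ras and MAPK, were low, at 3.28, 1.76 and 2.74. The peaks over dl, an NF-kappaB factor held back by the product of cact, scored 3.81 and 5.89. The 3 dense-cluster peaks over daw, an activin-like ligand, scored 5.12, 6.25 and 4.65, and a daw peak of 8.11 lay above the score limit. Mi-2, an ATPase that remodels nucleosomes, had dense-cluster peaks of 6.40, 6.38 and 7.38, each shared with Su(Tpl), and a peak of 7.72 above the score limit.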
